A study of Mus musculus with 30 samples.

Results

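Members of the Wnt signalling pathway were followed in mouse hippocampus through postnatal maturation, in wild-type males and in males heterozygous for Nf1. The rule took, by gene name, the non-control probe sets with 1 gene symbol that begins with Wnt, Fzd, Dkk, Sfrp, Dvl, Tcf7, Lrp5 or Lrp6, or is Ctnnb1, Apc, Gsk3b, Axin1, Axin2, Lef1, Frzb or Porcn. This gave 51 of the 12422 non-control probe sets of the array, for 41 of the 8251 genes named by 1 symbol. A mean intensity of 31 over the 30 arrays divided them into 25 probe sets for 24 genes that were tested (Tcf7l1 has 2, a first with a mean of 32.5 and a second with a mean of 49.4) and 26 dim probe sets that were not. The 26 dim ones include the only probe sets of 17 genes. Gsk3b, Porcn and Tcf7 had no probe set under the rule and were not analysed here.

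Wnt proteins are secreted, lipid-modified ligands that bind Frizzled receptors together with the co-receptors Lrp5 and Lrp6. Without a ligand, a destruction complex of Axin, Apc and kinases marks beta-catenin for degradation; with one, Dishevelled proteins disable that complex, and beta-catenin enters the nucleus and works with TCF and LEF factors on target genes. Secreted antagonists of the Sfrp and Dkk families act outside the cell. In hippocampus the pathway is known for the generation of dentate granule neurons and for the growth of dendrites, axons and synapses, partly through branches that do not use beta-catenin.

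Total RNA was hybridised to Affymetrix MG-U74Av2 arrays, 1 array per sample, and each sample was a pool of hippocampi from 2 male pups of a cross between C57BL/6 animals and Nf1 heterozygotes. The groups were wild type, with 3, 4, 2, 2, 2 and 2 pools at postnatal day 10 (P10), P15, P18 and P20 and at P28 and P32, and NF+/- (called heterozygous here), with 4, 4, 2, 2, 2 and 1 pools at the same ages, 15 and 15 in all. No treatment, transgene or Cre driver is named; the sources used here do not give the Nf1 allele, the litters or the meaning of the number and letter in each title (1a, 2b and so on). Whether pools of a group came from separate litters is therefore unknown, and the spread behind each p-value may be partly technical. The title numbers were unevenly spread: all P28 and P32 pools carry 1, while P10 pools carry 1 or 2. At P20 both wild-type pools carry 2 and both heterozygous pools carry 1.

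All values are linear intensities that the authors had brought to 1 level, with array medians of 49.99 to 59.11. Within groups, log2 values of 2 libraries correlated at 0.952 or more over the probe sets with a mean of 31 or more. The exception was the heterozygous P18 group, whose 2 libraries correlated at 0.929. One of these, 1b, also stood apart in the log2 ratio of the 3′ to the 5′ Gapdh control probe set (0.48, against -0.33 to 0.17 in the other 29 libraries), which is a sign of RNA quality. Genes listed as markers of hippocampal principal neurons had summed intensities of 3624 to 7448 over 10 genes. The sum shows signal for these genes and does not check that the tissue was hippocampus. The Nf1 probe set was dim (7.36 ± 4.92 in wild type and 6.68 ± 4.31 in heterozygotes, SD, n = 15 each) and does not check the genotype labels.

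Most ligands were too dim to follow. Of 16 ligand probe sets, 11 had means below 31. They were those of Wnt2b (8.19), Wnt3a (13.3), Wnt5a (19.8), Wnt5b (18.6), Wnt6 (14.5), Wnt7a (10.4), Wnt8a (7.92), Wnt11 (4.06) and all 3 of Wnt10b (3.20, 8.84 and 16.7). Among the receptors, Fzd1 (25.9), Fzd6 (9.70), 1 of 2 probe sets of Fzd3 (15.8) and 2 of 3 of Fzd4 (2.01 and 7.43) were dim. The co-receptor Lrp5 (6.03), a weaker probe set of Lrp6 (6.98), the antagonists Sfrp1 (29.7), Sfrp4 (24.5), Dkk1 (5.27) and Dkk2 (11.6), Dvl3 (24.8), and the weaker probe sets of Dvl2 (16), Lef1 (25.4) and Tcf7l2 (22.5) were dim as well. No array reached 31 for 14 of the 26. A dim probe set can reflect the probes as well as the transcript, and the files used here hold no detection calls. The values nearest to the limit were 32.5 for the first probe set of Tcf7l1 and 37.3 for Axin2 inside it, and 29.7 for Sfrp1 outside it. Of the 25 tested probe sets, 10 had means above 100 and 15 had means below 70, close to the array medians.

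Upstream sequence is shown for 3 members that moved with age and whose start sites were in the RefSeq promoter table (GRCm38.p6), a falling receptor, a rising antagonist and a falling nuclear factor. The member search used 20 windows for 15 of the 24 tested genes. It used none for Wnt7b, Fzd2, Fzd3, Fzd8, Apc, Lrp6 or Dkk3, which does not show that the table lacks them. The member shares below describe the windows used and not all tested genes. The windows of all genes were not matched to them and include a chromosome that the member search left out. Each window is the 250 bases before the start, 5′ to 3′ on the gene's strand, with GC boxes (GGGCGG on either strand, overlapping matches included) in capitals.
Fzd9, chr5:135251048-135251297, minus strand: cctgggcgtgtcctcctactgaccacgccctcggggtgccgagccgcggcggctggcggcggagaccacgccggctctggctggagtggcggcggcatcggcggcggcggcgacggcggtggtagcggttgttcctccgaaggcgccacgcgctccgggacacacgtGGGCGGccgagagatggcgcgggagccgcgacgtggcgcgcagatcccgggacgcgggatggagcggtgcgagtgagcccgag
Frzb, chr2:80447397-80447646, minus strand: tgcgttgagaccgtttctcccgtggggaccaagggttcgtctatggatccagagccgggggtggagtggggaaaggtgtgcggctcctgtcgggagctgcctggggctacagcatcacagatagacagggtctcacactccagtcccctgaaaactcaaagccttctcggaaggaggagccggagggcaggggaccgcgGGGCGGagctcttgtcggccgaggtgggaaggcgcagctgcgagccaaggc
Lef1, chr3:131110047-131110296, plus strand: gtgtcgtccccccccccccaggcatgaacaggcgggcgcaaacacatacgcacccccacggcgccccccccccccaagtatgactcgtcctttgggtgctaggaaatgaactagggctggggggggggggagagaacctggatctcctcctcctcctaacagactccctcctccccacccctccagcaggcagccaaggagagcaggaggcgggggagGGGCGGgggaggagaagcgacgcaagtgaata
The box began 83 bases before the start of Fzd9, 51 before that of Frzb and 32 before this start of Lef1. A GC box was present in 17 of the 20 member windows (85%), covering 14 of 15 genes, and in 32.7% of all 32851 windows. Member windows had a median GC content of 68.6%, against 52.4% for all. Whether the share with a box follows base composition was not tested. The TCF and LEF recognition letters CTTTGAT or CTTTGAA, searched on both strands, were in 0 of 20 member windows and in 7.48% of all windows. This says only that these letters are not in these windows.

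Over the 6 ages, 13 of the 25 tested probe sets changed (limma's moderated F test, adjusted p below 0.05 with Benjamini-Hochberg adjustment over all 7591 probe sets tested), where 53.7% of all did. Between P10 and the 2 latest ages, here called maturation (P28 and P32 averaged, minus P10, each genotype weighted equally), 16 of 25 changed, where 53.6% of all did. Of these, 13 were lower (29.1% of all tested probe sets were) and 3 were higher (24.5% of all were). The median log2 difference was -0.38 over the 25 and -0.06 over all tested probe sets, with 20 of the 25 below 0 and 55.2% of all below 0. The 13 that fell were Wnt7b, Wnt1, Fzd9, Fzd3, Fzd2, Fzd8, Sfrp2, Apc, Ctnnb1, Lef1, Tcf7l2 and both probe sets of Tcf7l1, and the 3 that rose were Frzb, Wnt3 and Dkk3. In a whole tissue, fewer cells of a type and less RNA per cell cannot be told apart.

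**Figure D1:**
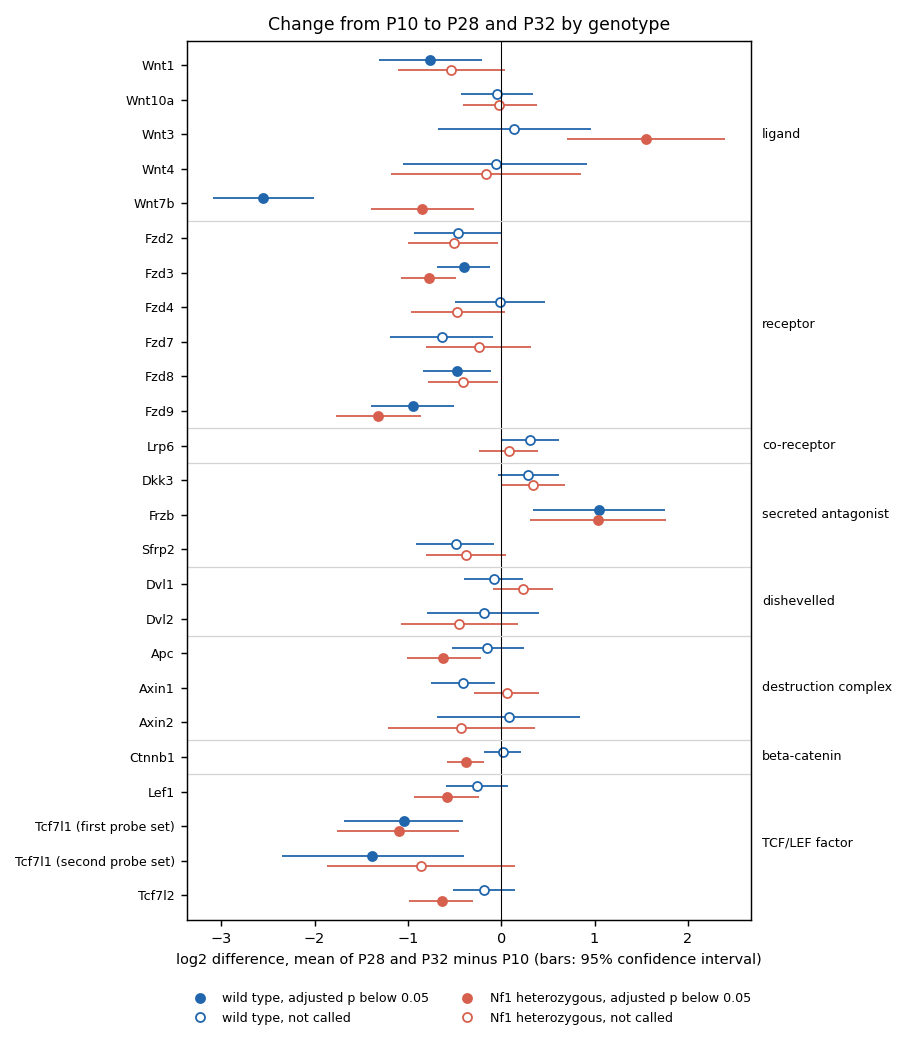
Log2 difference between the mean of P28 and P32 and P10 for the 25 tested probe sets, ordered by role, in wild type (blue) and Nf1 heterozygotes (red), with 95% confidence intervals from limma; filled points have an adjusted p below 0.05. Wnt7b lies farthest left, at -2.55 in wild type and -0.85 in heterozygotes, and Frzb lies at 1.05 and 1.04.

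Wnt7b, a ligand known to promote the growth of dendrites in hippocampal neurons, fell the most. At P10 its intensities were 47.6, 50.4 and 61.6 in wild type and 58.6, 41.1, 60.0 and 67.5 in heterozygotes. At P15 they were 59.4, 36.1, 48.1 and 51.8 in wild type and 46.9, 61.8, 44.9 and 46.7 in heterozygotes. Both genotypes thus shared a range at these ages. Wild-type pools stayed at 50.4 and 58.4 at P18 and at 32.7 and 47.5 at P20, and then dropped to 12.3 and 8.60 at P28 and 5.77 and 10.8 at P32. All 4 late wild-type pools lay below every other array. Heterozygous pools were already at 32.9 and 27.0 at P18 and at 32.1 and 32.2 at P20, and stood at 20.4 and 37.6 at P28 and 34.9 at P32. The wild-type fall was 5.86-fold (log2 difference -2.55, SE 0.26, adjusted p = 9.9e-08 by limma), and the heterozygous fall 1.80-fold (-0.85, SE 0.27, adjusted p = 0.0165). The heterozygous call was lost without P28 library 1a (-0.63) and under quantile normalization (-0.64, adjusted p = 0.0742). The late wild-type values lie well under the array medians, where a ratio depends on the background: with 32 added before the log, the wild-type difference was -1.04 and that of both genotypes together -0.76, still called.

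The other tested ligands moved less. Wnt1, a ligand best known from midbrain and hindbrain development, ranged from 36.5 to 96.7 (median 63.4, n = 7) at P10 and from 31.1 to 56.9 (median 36.7, n = 7) at P28 and P32. These ranges overlapped, and the difference was -0.65 (SE 0.19, adjusted p = 0.00679). Wnt3, a ligand known to be released by hippocampal astrocytes, rose by 0.85 (SE 0.29, adjusted p = 0.0163). Its rise was carried by the heterozygotes (1.55, SE 0.41, adjusted p = 0.00481), in which P10 pools read 42.6, 21.4, 7.79 and 11.0. The P10 pools of the wild type read 37.8, 41.7 and 43.7, within the late range of both genotypes (34.0 to 55.0), and the wild-type difference was 0.14 (SE 0.40). The low P10 values were those of 3 of 4 heterozygous pools and lie below the limit of 31, so the size of the rise depends on the background (0.67 in heterozygotes with 32 added before the log, still called), and the call for both genotypes was lost with the title number as a block. Wnt4 and Wnt10a did not pass the test (differences of -0.11, SE 0.34, and -0.03, SE 0.13).

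Of the 6 tested Frizzled receptors, 4 fell with maturation (29.1% of all tested probe sets did) and 0 rose (24.5% of all did). Fzd9, a receptor with high expression in hippocampus, read 53.1, 42.5 and 57.0 in wild-type and 75.0, 58.5, 67.7 and 47.3 in heterozygous pools at P10. At P28 and P32 it read 23.8, 27.2, 22.3 and 31.9 in wild-type and 25.3, 39.4 and 19.2 in heterozygous pools. Every late pool was below every P10 pool. The difference was -1.14 (SE 0.15, adjusted p = 1.4e-06), with -0.95 in wild type and -1.32 in heterozygotes, and its call held without each library in turn (-1.22 to -0.96). Most of the fall came in the last step: P15 pools held 35.2 to 56.9 and P18 and P20 pools 34.1 to 55.7.

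Fzd3, a receptor needed for the guidance of major axon tracts, changed earlier. Its intensities at P10 were 115, 114 and 140 in wild type and 164, 141, 161 and 174 in heterozygotes. They were 133, 112, 116 and 113 and then 106, 116, 144 and 89.5 at P15, and 74.3 to 115 (median 91.8, n = 8) at P18 and P20. The late range was 79.8 to 104 (median 92.9, n = 7), within that of P18 and P20. The maturation difference was -0.59 (SE 0.10, adjusted p = 2.9e-05). The suffix of this probe set (_s_at) marks probes that may match more than 1 transcript.

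Fzd2 and Fzd8 fell less. Fzd2 ranged from 47.5 to 90.9 (median 65.7, n = 7) at P10, from 60.1 to 80.5 (median 67.9, n = 8) at P15 and from 37.4 to 59.8 (median 42.6, n = 7) at P28 and P32. Fzd8 went from 48.3 to 83.9 (median 69.5) at P10 to 32.1 to 58.3 (median 49.5) at P28 and P32. In both receptors the late range reached into the P10 range. The differences were -0.49 (SE 0.16, adjusted p = 0.0145) for Fzd2 and -0.44 (SE 0.13, adjusted p = 0.00555) for Fzd8. Both calls were lost under quantile normalization, and that of Fzd2 also without wild-type P10 library 2b (-0.36). Fzd7 (-0.44, SE 0.19, adjusted p = 0.0543) and Fzd4 (-0.24, SE 0.17) did not pass. Fzd4, a receptor best known from retinal and brain vessels, stayed between 132 and 349 on all 30 arrays.

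The co-receptor Lrp6 changed over the ages (F test, adjusted p = 0.0345) without a maturation difference that passed (0.20, SE 0.11). It ranged from 122 to 195 (median 154, n = 7) at P10, from 135 to 218 (median 178, n = 8) at P15, from 174 to 218 (median 195, n = 8) at P18 and P20 and from 148 to 203 (median 166, n = 7) later. Its P18 and P20 pools were the highest as a group but overlapped those of every other age. The age call was lost without any of 7 single libraries, among them wild-type P10 library 2b (adjusted p = 0.0967).

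**Figure D2:**
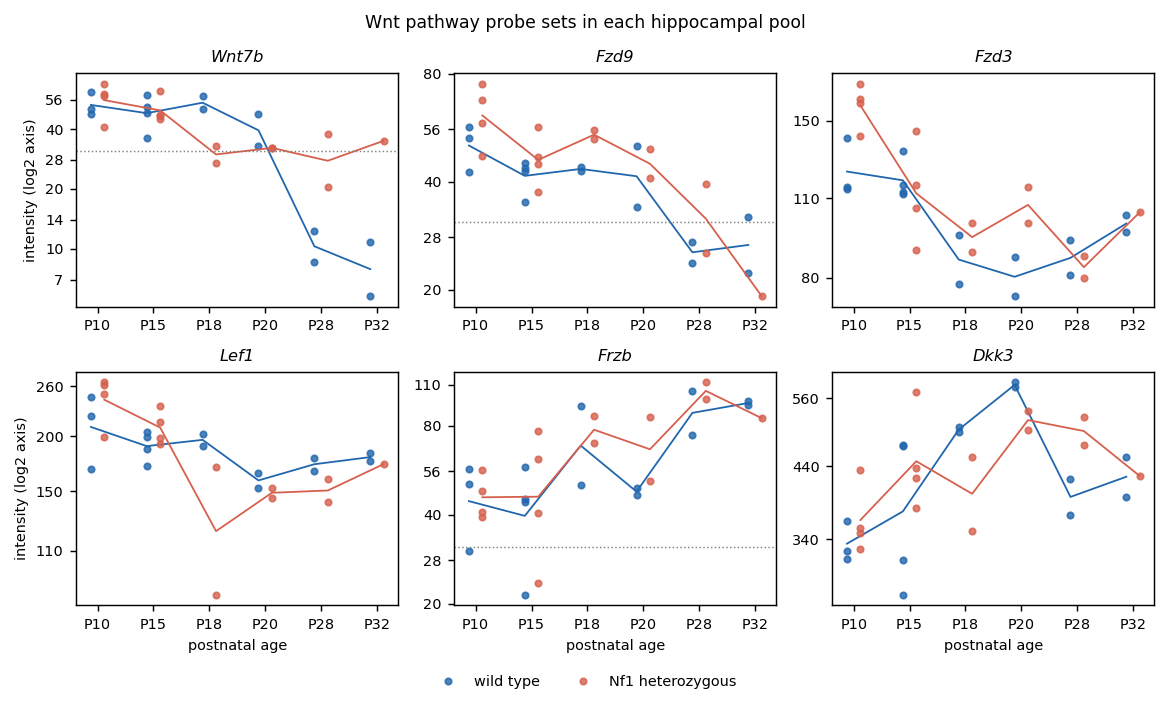
Intensity of 6 members in each hippocampal pool against age, on log2 axes; points are pools (blue wild type, red heterozygous), lines join group means of log2 values, and the dotted line, where in range, is the limit of 31. Wnt7b is at or below 12.3 in the 4 late wild-type pools, Fzd9 and Fzd3 fall in both genotypes at different ages, and Frzb is at or above 74.4 in all late pools.

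The 3 tested secreted antagonists did not move together. Frzb, a secreted Frizzled-related protein that binds Wnt ligands, read 57.2, 50.9 and 30.1 in wild-type and 56.8, 48.2, 40.9 and 39.2 in heterozygous pools at P10. At P28 and P32 it read 74.4, 105, 94.3 and 96.6 in wild-type and 112, 98.3 and 84.8 in heterozygous pools. Every late pool was above every P10 pool, and the rise was 2.06-fold (1.04, SE 0.25, adjusted p = 9.9e-04). P15 pools spread from 21.4 to 76.6 (median 44.6, n = 8) and P18 and P20 pools from 46.5 to 93.1 (median 60.8, n = 8). With the title number as a block the maturation call was kept, while those within each genotype and that of the F test over the ages were lost.

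Sfrp2, a related Wnt-binding protein, went from 65.1 to 92.8 (median 82.0, n = 7) at P10 to 45.4 to 67.2 (median 56.9, n = 7) at P28 and P32, with P18 and P20 pools at 40.5 to 76.5. The late pools overlapped the P10 range at its lower end only, and the difference was -0.44 (SE 0.14, adjusted p = 0.0134). Dkk3, a divergent member of the Dickkopf family that neurons express, had its highest median at P20. It ranged from 317 to 434 (median 347, n = 7) at P10, from 279 to 573 (median 430, n = 8) at P15, and from 370 to 523 (median 425, n = 7) at P28 and P32. At P20 (median 559) it read 582 and 592 in wild-type and 501 and 536 in heterozygous pools, all above every P10 pool. Its maturation difference was 0.32 (SE 0.12, adjusted p = 0.0242). The maturation calls of Sfrp2 and Dkk3 were lost under quantile normalization and when the title number was a block, and that of Dkk3 also without any of 3 wild-type libraries (P10 2a, P28 1b or P32 1a, 0.29 to 0.30).

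Inside the cell, Apc and beta-catenin passed the maturation test and the other scaffold and signalling proteins did not. Neither Dvl1 nor Dvl2, which carry the signal from Frizzled, passed the test (0.08, SE 0.11, and -0.32, SE 0.21). In the destruction complex, Axin1 (-0.18, SE 0.12) and Axin2 (-0.17, SE 0.27), of which Axin2 is a widely used readout of the beta-catenin branch, did not pass either. The interval for Axin2 ran from -0.72 to 0.37, so neither a fall nor a rise of modest size can be told from no change.

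Apc, the scaffold that gives the complex its grip on beta-catenin, rose and then fell. Its P10 pools read 127, 142 and 117 in wild type and 143, 136, 141 and 179 in heterozygotes. They held 75.3 to 146 (median 117, n = 8) at P15, 128 to 192 (median 156, n = 8) at P18 and P20, and 79.9 to 141 (median 117, n = 7) later. Of the P15 values, 145, 128 and 146 lay within or at the edge of the P18 and P20 range and the other 5 below it. The rise from P15 to P18 and P20 was 0.48 (SE 0.12, adjusted p = 0.0133) and the fall after it -0.54 (SE 0.13, adjusted p = 0.00478). From P10 the net difference was -0.38 (SE 0.13, adjusted p = 0.0193), a call lost under quantile normalization, without wild-type P10 library 2a (-0.35) or without the only heterozygous P32 library (-0.24). It was called in heterozygotes (-0.62, SE 0.19, adjusted p = 0.0142; -0.34 and not called without that P32 library) and not in wild type (-0.15, SE 0.19, adjusted p = 0.562), and the difference between genotypes was not called.

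Ctnnb1, beta-catenin itself, was bright on every array, from 1340 to 2200. Wild-type pools read 1660, 1590 and 1710 at P10 and 1630, 1720, 1590 and 1750 at P28 and P32, a difference of 0.02 (SE 0.09). Heterozygous pools read 2020, 1710, 1950 and 2040 at P10 and 1580, 1370 and 1490 later, a fall of 0.38 on the log2 scale (SE 0.10, adjusted p = 0.00372). The late heterozygous pools were below all 4 of their P10 pools, and the wild-type ranges overlapped. The difference between the genotypes in maturation was -0.40 (SE 0.14, adjusted p = 0.583) and was not called. For both genotypes together the fall was 0.18 on the log2 scale (SE 0.07, adjusted p = 0.0278), and it was not called without any of 6 single libraries (3 wild-type and 3 heterozygous; -0.17 to -0.16).

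All 4 tested probe sets of the TCF and LEF factors fell over both genotypes (29.1% of all tested probe sets did). Lef1, which the dentate gyrus needs to form its granule cells, read 246, 169 and 223 in wild-type and 261, 250, 199 and 265 in heterozygous pools at P10. P15 pools ranged from 171 to 234 (median 199, n = 8), and late pools from 142 to 183 (median 173, n = 7). Only the lowest P10 pool, a wild-type one, lay within the late range. The difference was -0.42 (SE 0.12, adjusted p = 0.00373), and it was called under every alternative run. Within genotypes it was called in heterozygotes (-0.58, adjusted p = 0.00753) and not in wild type (-0.26, adjusted p = 0.215). Tcf7l2, a factor with strong expression in thalamus, was at 86.6 to 148 (median 118, n = 7) at P10, 116 to 174 (median 129, n = 8) at P15, 87.8 to 147 (median 112, n = 8) at P18 and P20 and 76.6 to 112 (median 93.2, n = 7) later. Its difference was -0.41 (SE 0.12, adjusted p = 0.00481), while ranges of P10 and late pools overlapped. It too was called in heterozygotes (-0.64, adjusted p = 0.00419) and not in wild type (-0.18, adjusted p = 0.394). The differences between genotypes were not called for either factor. The suffix of its probe set (_f_at) marks possible matches to other transcripts.

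Tcf7l1, which acts mainly as a repressor in the absence of beta-catenin, fell in both of its probe sets. The first went from 25.4 to 59.1 (median 46.4, n = 7) at P10 to 18.2 to 30 (median 21.3, n = 7) later, and the second from 29 to 76.4 (median 62.1) to 13.8 to 57.3 (median 28.2). The differences were -1.07 (SE 0.22, adjusted p = 2.7e-04) and -1.12 (SE 0.34, adjusted p = 0.00792). The ranges overlapped, and the second call was lost with the title number as a block. Within genotypes the second probe set was called in wild type (-1.38, adjusted p = 0.0246) and not in heterozygotes (-0.86, adjusted p = 0.173). The late medians of both probe sets lie below the limit of 31 used for dim ones.

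**Figure D3:**
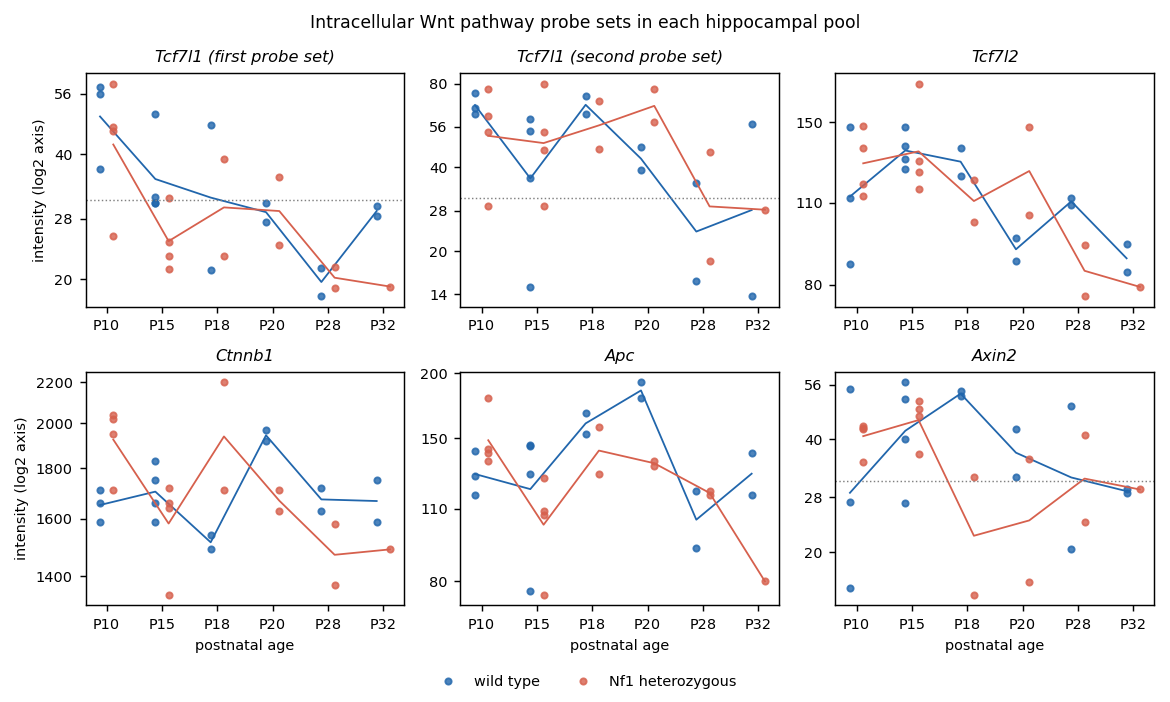
Intensity of both Tcf7l1 probe sets, Tcf7l2, Ctnnb1, Apc and Axin2 in each pool against age, on log2 axes with points and lines as in the plot of 6 members by age. The group means of both Tcf7l1 probe sets and of Tcf7l2 at P32 lie below those at P10, the wild-type mean of Apc is highest at P20, and Ctnnb1 stays between 1340 and 2200.

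The steps between ages placed these changes. From P10 to P15, 2 of 25 probe sets changed, where 25.6% of all tested ones did. They were the first probe set of Tcf7l1 (-0.64, SE 0.21, adjusted p = 0.0268) and Fzd3 (-0.28, SE 0.09, adjusted p = 0.0317). Group means of log2 Fzd3 went from 6.94 to 6.89 in wild type and from 7.31 to 6.81 in heterozygotes. Each call was lost without some single libraries, 4 for Tcf7l1 and 8 for Fzd3, and the count was 1 without any of 6 libraries, fell to 0 without wild-type P10 library 2b and rose to 4 without wild-type P15 library 2d. From P15 to P18 and P20, 3 of 25 changed, where 13.3% of all did. Fzd3 fell (-0.33, SE 0.09, adjusted p = 0.019), Lef1 fell (-0.37, SE 0.10, adjusted p = 0.022) and Apc rose. Group means of log2 Lef1 went from 7.57 at P15 to 7.61 at P18 and 7.32 at P20 in wild type. In heterozygotes they went from 7.71 to 6.93 and 7.22, where P18 library 1a read 87.4. The Fzd3 call was lost with array weights, without both heterozygous P18 libraries, and without wild-type P18 library 1c (-0.30) or P20 library 2a (-0.31). The Lef1 call was lost without wild-type P20 library 2b (-0.36) or heterozygous P15 library 1d (-0.34). From P18 and P20 to P28 and P32, 6 of 25 changed, where 18.9% of all did, and all 6 were lower (10.6% of all tested probe sets were). These were Wnt7b (-1.18, SE 0.18, adjusted p = 9.5e-05), Fzd9 (-0.85, SE 0.15, adjusted p = 3.1e-04), the second probe set of Tcf7l1 (-1.08, SE 0.33, adjusted p = 0.0232), Apc, Fzd8 (-0.36, adjusted p = 0.0425) and Tcf7l2 (-0.33, adjusted p = 0.0452). The falls of Wnt7b and Fzd8 lay in wild type. Group means of log2 Wnt7b at P18, P20, P28 and P32 were 5.76, 5.3, 3.36 and 2.98 there. In heterozygotes they were 4.9, 5.01, 4.79 and 5.13. Those of Fzd8 were 6.21, 6.01, 5.32 and 5.38 in wild type and 5.63, 5.81, 5.78 and 5.73 in heterozygotes. Steps between ages were not tested within each genotype. With 1 library left out, the call of Tcf7l2 was lost in 18 of 30 fits, that of Fzd8 in 9 and that of the second Tcf7l1 probe set in 4, and those of Wnt7b, Fzd9 and Apc in 0. Other settings also ended the calls of Tcf7l2 (5 settings), Fzd8 (4) and the second Tcf7l1 probe set (1, the Gapdh covariate). The last step kept 3 calls without wild-type P32 library 1a or without heterozygous P28 library 1a.

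**Figure D4:**
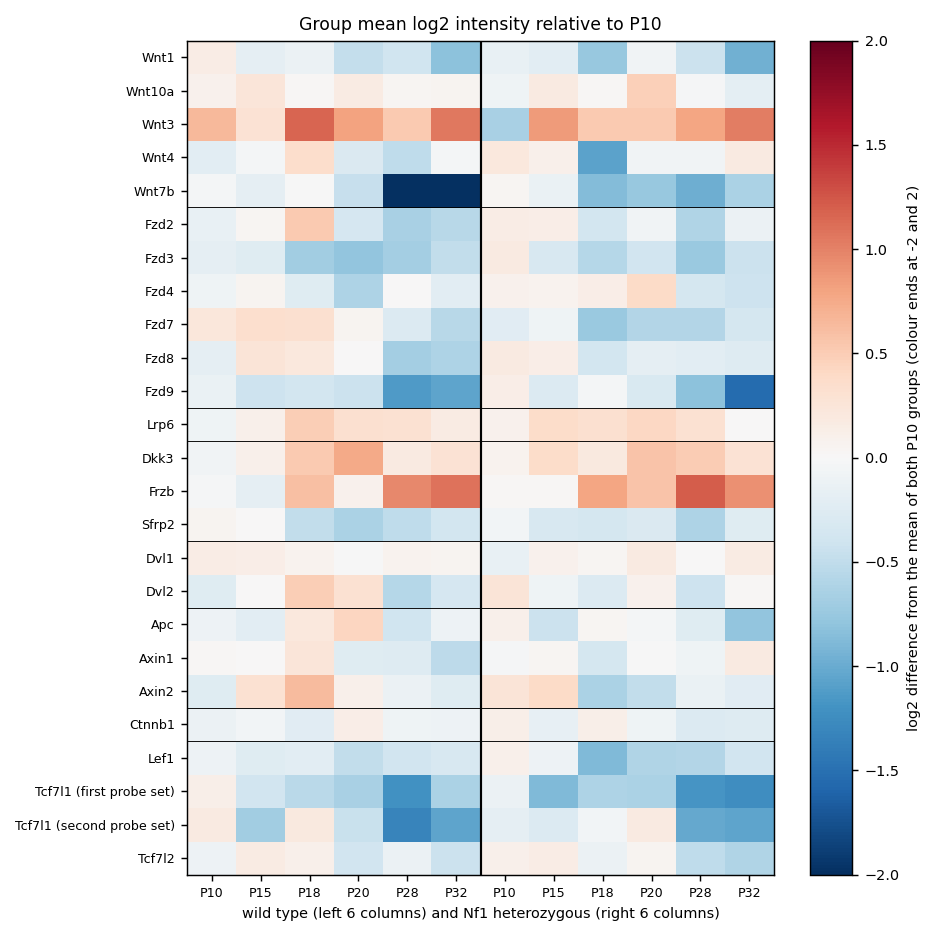
Group mean log2 intensity minus the mean of both P10 groups for the 25 tested probe sets (rows, by role) in the 12 groups of genotype and age (columns); blue is lower, red is higher, and the colour ends at 2 in either direction. The strongest blue is Wnt7b in the late wild-type groups, and the late red cells include Frzb and Wnt3.

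Maturation was also tested within each genotype. In wild type 8 of 25 probe sets changed, where 37.8% of all tested ones did, and in heterozygotes 10 of 25 changed, where 36.3% of all did. Without each library in turn the wild-type count ran from 4 to 10, and it was lowest without P10 library 2b. It was 5 without P10 2a, P28 1b or P32 1a. Wnt7b, Fzd9, Fzd3, the first probe set of Tcf7l1 and Frzb passed in both genotypes. Tests of the difference between the genotypes called 0 of 25 members and 0% of all 7591 probe sets. An unadjusted p below 0.05 was found for 3 members and for 514 of all 7591. The largest difference was that of Wnt7b, 1.71 (SE 0.38, 95% confidence interval 0.93 to 2.48, adjusted p = 0.142; 0.57 with 32 added before the log), with Wnt3 at 1.41 (SE 0.58, adjusted p = 0.657) and Ctnnb1 at -0.40.

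Genotype over all ages gave 0 calls among the 25 (limma, 0% of all tested probe sets). An unadjusted p below 0.05 was found for 703 of all 7591 tested probe sets and for 1 member. This was Fzd7, a Frizzled receptor known from stem and progenitor cells, with a difference of -0.48 (heterozygous minus wild type, SE 0.13, adjusted p = 0.277). Its mean was lower in heterozygotes at 5 of 6 ages. The test of genotype by age called 1 of 25 members, Wnt7b (adjusted p = 0.00835), where 6.18% of all tested probe sets were called. The differences of Wnt7b, heterozygous minus wild type, were 0.08 (SE 0.26) at P10, 0.05 (SE 0.24) at P15, -0.87 (SE 0.34) at P18, -0.29 (SE 0.34) at P20, 1.43 (SE 0.34) at P28 and 2.14 (SE 0.42) at P32. The sign thus turned from lower in the heterozygous pools at P18 to higher at P28 and P32, where the 3 heterozygous pools (20.4 to 37.6) did not overlap the 4 wild-type pools (5.77 to 12.3). No single age passed for Wnt7b (adjusted p = 0.0692 at P18, 0.316 at P28 and 0.0568 at P32). The P18 value passed with 32 added before the log (-0.48, adjusted p = 0.0414) and with a floor at 16 (-0.87, adjusted p = 0.038). The P32 value, which rests on 1 heterozygous library, passed under 6 alternatives with adjusted p from 0.0409 to 0.0491, and without any of 10 single libraries. The size of the late differences depends on the background, since the wild-type pools were far below the limit of 31: with 32 added before the log they were 0.51 at P28 and 0.73 at P32 (adjusted p = 0.939 and 0.408), and with a floor at 16 they were 0.79 and 1.13 (adjusted p = 0.886 and 0.463). The genotype by age call held without each library in turn (adjusted p from 0.0017 to 0.0365) and without both heterozygous P18 libraries (0.0307), and was lost with the Gapdh ratio as a covariate (0.103).

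At P18, 4 of 25 members differed between the genotypes, where 22.4% of all tested probe sets did. Fzd7 read 45.5 and 58.5 in wild-type and 24.2 and 25.1 in heterozygous pools (-1.07, SE 0.35, adjusted p = 0.0307). Fzd2 read 86.3 and 100 in wild-type and 73.1 and 34.8 in heterozygous pools (-0.88, SE 0.30, adjusted p = 0.035). Lef1 read 203 and 190 in wild-type and 87.4 and 170 in heterozygous pools (-0.69, SE 0.21, adjusted p = 0.0228). Ctnnb1 went the other way, with 1540 and 1490 in wild-type and 1710 and 2200 in heterozygous pools (0.36, SE 0.12, adjusted p = 0.0407). In Fzd2, Lef1 and Ctnnb1, 1 heterozygous library stood far from the other. Library 1b, the one with the high Gapdh ratio, held the value of 34.8 for Fzd2 and 2200 for Ctnnb1, and library 1a held 87.4 for Lef1. Without 1b the differences of Fzd2 and Ctnnb1 were -0.35 and 0.17, and without 1a that of Lef1 was -0.21, none of them called. Over all probe sets the P18 count ran from 252 to 2777 without each library in turn (1697 with all). The Fzd7 difference stayed between -1.25 and -0.88 without each library in turn, though its call was lost without any of the 4 P18 libraries. The count was 0 without either wild-type P18 library and 1 without heterozygous library 1b. With the Gapdh ratio as a covariate 1 of the 4 calls was left, that of Lef1, and with array weights 0.

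**Figure D5:**
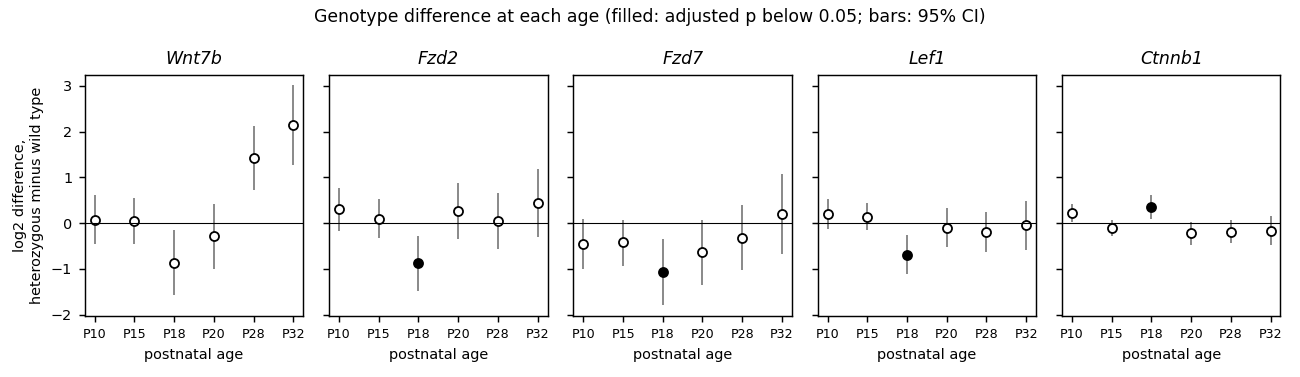
Heterozygous minus wild-type log2 difference at each age for Wnt7b, Fzd2, Fzd7, Lef1 and Ctnnb1, with 95% confidence intervals from limma; filled points have an adjusted p below 0.05. The 4 filled points are all at P18, and Wnt7b goes from -0.87 at P18 to 2.14 at P32.

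The other ages gave few differences. No member was called at P10 (0.0395% of all tested probe sets were; 3 members had an unadjusted p below 0.05), at P15 (0% of all; 0 members), at P20 (2.23% of all; 2 members), at P28 (0.0132% of all; 1 member) or at P32 (0.0132% of all; 3 members). Over all 7591 tested probe sets, the unadjusted p of limma was below 0.05 for 457 at P10 and 443 at P15. It was so for 1230 at P20, 389 at P28 and 518 at P32. At P20 the difference of Fzd4 was 1.0 (SE 0.31, adjusted p = 0.0854), with 132 and 150 in wild-type and 271 and 294 in heterozygous pools. These wild-type pools carry title number 2 and the heterozygous ones 1, so genotype and title number cannot be told apart at P20. With that number as a block, 43 of all tested probe sets were called at P20, in place of 169. The Fzd4 difference was called without both heterozygous P18 libraries (adjusted p = 0.0411), which changes only the estimate of the spread. At P10 the difference of Wnt3 was -1.29 (SE 0.40, adjusted p = 0.43).

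Other genes of the pathway, outside the naming rule, changed in both directions during maturation. Over all tested probe sets, 24.5% rose and 29.1% fell. Of 8 tested genes for Wnt secretion, planar polarity and binding outside the cell, 1 rose and 1 fell: the proteoglycan Gpc4 by 0.77 (SE 0.12, adjusted p = 1.5e-05) and its relative Gpc3 by -0.70 (SE 0.15, adjusted p = 4.8e-04). Of 32 tested kinases, phosphatase subunits and other cytoplasmic genes, 10 rose and 11 fell. Csnk1a1, a kinase of the destruction complex, rose by 0.59 (SE 0.07), and Mapk10, the neuronal JNK, by 0.75 (SE 0.07). Rac3, a small GTPase of neurite growth, went from 190 to 283 at P10 to 11.0 to 56.5 at P28 and P32 (-2.75, SE 0.26, adjusted p = 4.5e-09). Apc2, the neuronal relative of Apc, went from 320 to 387 to 156 to 212 (-0.92, SE 0.10), and the ranges of neither gene overlapped. The late values of Rac3 reach below the limit of 31, and with 32 added before the log its difference was -1.95. Csnk1e fell as well (-0.81, SE 0.11), and Ppp2r5a, a regulatory subunit of a phosphatase, rose (0.60, SE 0.09).

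Of 26 tested nuclear and adhesion partners, 6 rose and 9 fell. Nlk, a kinase that acts on TCF and LEF factors, rose 1.99-fold (0.99, SE 0.10, adjusted p = 1.3e-08), from 69.3 to 101 at P10 to 127 to 191 later. The corepressor Tle4 (0.60, SE 0.18) and the catenin Ctnna1 (0.40, SE 0.13) rose, while Ctnnbip1, an inhibitor that binds beta-catenin, fell (-0.60, SE 0.13), as did Hdac1 (-0.44, SE 0.12) and Ruvbl2 (-0.41, SE 0.11). Of 17 tested genes often listed as targets of the beta-catenin branch, 4 rose and 8 fell. L1cam, an adhesion molecule of growing axons, fell (-2.06, SE 0.14, adjusted p = 3.2e-11), from 95.7 to 151 to 20.6 to 32.6. These late values lie around the limit for dim probe sets, and with 32 added before the log the difference was -1.30, still called. Neurod1, a factor of differentiating granule neurons (-1.05, SE 0.14), and Id3 (-0.96, SE 0.10) fell, while Jun (0.72, SE 0.15), Tiam1 (0.62, SE 0.10) and Gja1, the astrocyte connexin (0.44, SE 0.09), rose. The medians of these lists were -0.06, -0.11, -0.07 and -0.35 in the order given, against -0.06 for all tested probe sets. Many of these genes are also controlled by other pathways, and the counts say nothing of which. Genotype over all ages called 0 genes in each of the 4 lists. At P18, genotype called 0 of 8, 8 of 32, 11 of 26 and 2 of 17, in the order given. Of all tested probe sets, 22.4% were called there.

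Cell type markers changed over the same ages, where 24.5% of all tested probe sets rose and 29.1% fell. All 12 tested markers of immature neurons fell (median -1.06), and their summed intensity went from 17032 to 19506 at P10 to 8604 to 10364 at P28 and P32. Of 10 oligodendrocyte markers 9 rose and 1 fell (median 3.37), with sums of 1659 to 1927 at P10 and 8157 to 10039 later. Of 12 astrocyte markers 8 rose and 3 fell, of 10 endothelial markers 2 rose and 6 fell, and of 12 mural and meningeal markers 0 rose and 6 fell. Of 8 microglial markers 4 rose and 1 fell, of 10 markers of principal neurons 3 rose and 2 fell, of 5 choroid plexus markers 1 rose and 1 fell, and of 3 blood markers 1 fell. No marker sum was near 0 at any age, and the part of cell composition in the changes of the Wnt pathway genes was not tested.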

How the data were processed

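Expression was measured in 30 hippocampal pools. The deposited values are linear intensities, 1 per probe set and array, which the authors had brought to 1 level (mean after leaving out 2% at each end, 150.083 to 150.09); no source used here names the software. Of 12488 probe sets, 66 controls were left out. The platform annotation gave 1 symbol to 10833, several to 396 and none to 1193, and 10817 matched RefSeq GRCm38.p6. Values below 1 (6295, 1.68%; none among tested members) were set to 1 and log2 was taken. All 7591 probe sets with a mean of 31 or more were tested in limma 3.58.1 (R 4.3.3, statmod 1.5.0), with 1 mean per genotype and age over 30 arrays, a variance trend, two-sided p-values and Benjamini-Hochberg adjustment. The genotype effect across ages was fitted with additive terms for age and genotype. A member was called at an adjusted p below 0.05. The number of arrays limits the precision.

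Tested members were all named. For members called over the ages or by genotype, values were given per pool or, where a group held over 5 pools, as lowest, median and highest, and from each pathway list up to 3 called genes that rose most and 3 that fell most. For maturation, data were simulated with independent noise on 7591 probe sets. Of 67, 67 and 66 probe sets given log2 changes of 0.5, 1 and 2, 64.2%, 95.5% and 100% were recovered. There were 9 false calls of 182. Far fewer probe sets were changed than the 4067 called for maturation in the data. The recovered shares may therefore not hold for these data. The members and lists were chosen with earlier results of these data known. Alternatives changed the filter, floor, pseudocount, normalization, title code or number, variance prior, array weights, Gapdh ratio and libraries.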

Additional observations from a re-analysis of the deposited data

Results flagged for a closer look

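Wnt7b was flagged because the effect of genotype differed between ages, by limma's F test of genotype by age (adjusted p = 0.00835).

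In 4 of 75 sets of 4 pools, 1 pool lay far from the other 3, where chance flags about 1 in 20. The first probe set of Tcf7l1 (mean 32.5) read 49.9 in wild-type P15 library 2c and 30.6, 30.6 and 31.6 in the others. Axin2 read 34.9 in heterozygous P10 library 1b and 42.6, 42.9 and 43.4 in the others. Dvl1 read 428 in the same library, against 277, 291 and 292. Wnt7b read 61.8 in heterozygous P15 library 1d, against 44.9, 46.7 and 46.9.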

How the results depend on the processing

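Over 10 other settings, 1 more chosen after seeing the data (without both heterozygous P18 libraries) and 30 fits without 1 library each, the 63 calls of members gave 2574 values, of which 2409 were called with the same direction, 165 were not called and 0 turned sign. Of 12285 values of members that were not called, 345 turned sign. Without each library in turn, calls ran from 14 to 17 for maturation, 4 to 10 in wild type, 8 to 11 in heterozygotes, 0 to 4 from P10 to P15, 2 to 4 from P15 to P18 and P20, 3 to 7 after that, 11 to 15 over the ages, 1 to 5 for genotype by age (5 without heterozygous P18 library 1a, 2 without 1b or heterozygous P10 library 1a), 0 to 6 at P18 and 0 to 1 at P20 (1 without either heterozygous P18 library) and at P32.

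Wild-type maturation had 5 calls under quantile normalization and 4 when the title number was a block. The step from P10 to P15 had 1 call when the dimmest 40% of probe sets were removed, among them the first probe set of Tcf7l1. It had 1 call with no filter, where that of Fzd3 was lost. Genotype at P18 had 2 calls with no filter, 2 under quantile normalization, 0 with array weights and 1 with the Gapdh covariate. It had 6 with 32 added before the log (with Axin1, -0.48, adjusted p = 0.0495, and Wnt7b) and 5 with a floor at 16 (with Wnt7b). Over all probe sets it had 1697 in the reported fit, 208 with array weights and 82 with the Gapdh covariate. Genotype by age had 469 calls over all probe sets, 279 with array weights, 22 with the Gapdh covariate and 104 without both heterozygous P18 libraries; genotype at P20 had 169 and from 42 to 387 under other settings; genotype at P32 had 1 and from 0 to 12; genotype at P10 had 3 and from 1 to 10. From P15 to P18 and P20 it was 1010, and 529 with array weights. Without each library in turn, genotype by age ran from 86 to 1810 over all probe sets, and genotype at P20 from 18 to 349. Genotype at P20 had 1 call with array weights (Fzd4), 1 with the Gapdh covariate (Wnt4) and 1 without both heterozygous P18 libraries (Fzd4). Genotype at P32 had 1 call, Wnt7b, when the dimmest 40% were removed (1), with the title number blocked (1), no variance trend (1), array weights (1), the Gapdh ratio (1) or without both heterozygous P18 libraries (1). With the Gapdh ratio the genotype by age call was Lef1 (adjusted p = 0.0493) in place of Wnt7b. Apart from the removal of that Tcf7l1 probe set, the causes were not tested.

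Pools of both genotypes with the same title code did not deviate together (7 pairs, correlations of -0.17 to 0.14, 1 over 0.1), so the code was not taken to pair them. At P28, with 2 pools per group, pairs 1a and 1b give the same correlation (0.02) by construction and are not independent. With the title code as a replicate block, maturation had 17 calls, wild-type maturation 10, the last step 5 and genotype at P18 5 (with Axin1, -0.61, adjusted p = 0.0429). Members near the array medians, 15 of 25, have the least signal over background.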
